A study of Mus musculus with 2 samples.

Results

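Cxcl2-positive mature neutrophils with few stefin transcripts were taken from single-cell RNA sequencing of mouse bone marrow, and numbered 4292 of 28382 kept cells. A mature neutrophil was a barcode with at least 1 count of Cxcr2, counts of at least 2 of the 6 genes Csf3r, Mxd1, Trem1, G0s2, Retnlg and Mmp9, and no count of Csf1r, Cd79a or Cd3e. Of these, cells whose summed count of the 6 genes Stfa1, Stfa2, Stfa2l1, Stfa3, BC100530 and Gm5483 was below 2 were called low-stefin, and those with at least 1 Cxcl2 count were the Cxcl2-positive cells. The members were thus chosen by measured counts of these genes, and levels of the genes in the rule are given as description only. Barcodes were kept at 200 or more genes and no more than 20% mitochondrial counts. The low-stefin mature cells without a Cxcl2 count, 2181 in the T1D library and 1898 in the control library, served as the comparison within each library. The T1D library came from C57/BL6 mice given streptozotocin, a compound toxic to pancreatic beta cells, and had high blood sugar as its phenotype. The control library came from C57/BL6 mice given sodium citrate solution, with normal blood sugar. Both were prepared in the same way from femurs and tibias, with collagenase and dispase digestion and red cell lysis, on the Singleron GEXSCOPE platform. The labels used here state no sex, age or number of animals. With 1 library in each group, library and condition cannot be told apart. There was no test between conditions and no p-value, and all intervals are 95% intervals of counting error only.

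Neutrophils mature in the marrow through stages in which primary granule genes, then secondary granule genes, and at last the genes of the circulating cell are transcribed. Cxcr2 is the chemokine receptor that draws mature neutrophils out of the marrow, and Cxcr4 is the receptor that holds them there. Cxcl2 is a ligand of Cxcr2 that myeloid cells make within hours of a danger signal, through NF-kB and partner factors, and it is commonly induced together with Il1b, the cytokine whose release needs the inflammasome. Stefins are inhibitors of cysteine cathepsins, and mouse neutrophils carry a cluster of their genes.

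The T1D library gave 2378 Cxcl2-positive cells and the control library 1914. Median depth per cell was 2397 counts over 683 genes in T1D and 2929.5 counts over 803 genes in control. Their summed counts, 6831211 in T1D and 6792456 in control, are the base of every level below, which is given as CPM, counts in every 1000000 of the group's sum. A ribosomal RNA feature took 34.9% of these counts in T1D and 30.6% in control. The tables shared 253 barcodes, and 35 T1D and 44 control Cxcl2-positive barcodes were also kept in the other library. The label was checked against marker genes. The neutrophil markers S100a8, S100a9 and Ly6g summed to 32700 CPM in T1D and 54180 CPM in control Cxcl2-positive cells, which was 137% and 191% of the level over all kept cells of the same library. The immature neutrophil markers Ngp, Ltf, Camp, Fcnb and Chil3 were still present, at 38310 CPM in T1D and 43705 CPM in control, against 70692 and 88355 CPM in the Cxcl2-negative cells. This was 90.9% in T1D and 110% in control of the level over all kept cells, so this set was little depleted in T1D and not in control. At least 1 of the cycling markers Mki67, Top2a and Ube2c was counted in 37.1% of T1D and 32.4% of control Cxcl2-positive cells, against 52.3% and 50.2% of all kept cells. Macrophage markers summed to 35.6 CPM in T1D and 34.7 CPM in control, T or NK markers to 55.8 and 54.6 CPM, megakaryocyte markers to 27.7 and 29.3 CPM, plasmacytoid dendritic markers to 7.03 and 54.3 CPM and eosinophil markers to 2.34 and 43.7 CPM. Erythroid markers reached 1696 CPM in T1D and 1867 CPM in control, and plasma cell markers 1314 and 768 CPM. Against all kept cells of the same library, erythroid markers were at 94.3% in T1D and 114% in control and plasma cell markers at 88.0% and 39.7%. Basophil markers were at 83.2% and 101% and eosinophil markers at 9.49% and 118%, so not all of these transcripts were depleted. The neutrophil markers summed to 37233 CPM in T1D and 56229 CPM in control Cxcl2-negative cells. None of the markers was at 0 in the T1D members, and 1 of 4 megakaryocyte markers was at 0 in the control members.

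The promoter windows of Cxcl2, which chose the cells, and of Il1b and Ptgs2, among the genes most raised with it, are shown because these transcripts were higher together in Cxcl2-positive cells. Each window runs from 250 bases before to 50 bases after the annotated start, 5′ to 3′ on the gene's strand, and comes from RefSeq on GRCm38.p6. Capitals mark matches to the kappa-B consensus in Cxcl2 and to the C/EBP motif TTGCNNAA in Ptgs2. The Cxcl2 window lies at chr5:90903649-90903948 on the plus strand, the Il1b window at chr2:129371090-129371389 on the minus strand and the Ptgs2 window at chr1:150099781-150100080 on the plus strand.
Cxcl2: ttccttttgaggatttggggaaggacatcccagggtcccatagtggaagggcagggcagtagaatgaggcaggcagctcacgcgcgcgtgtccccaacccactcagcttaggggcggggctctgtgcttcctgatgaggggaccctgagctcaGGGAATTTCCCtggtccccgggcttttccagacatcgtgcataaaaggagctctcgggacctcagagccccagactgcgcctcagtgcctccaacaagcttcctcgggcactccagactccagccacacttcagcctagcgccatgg
Il1b: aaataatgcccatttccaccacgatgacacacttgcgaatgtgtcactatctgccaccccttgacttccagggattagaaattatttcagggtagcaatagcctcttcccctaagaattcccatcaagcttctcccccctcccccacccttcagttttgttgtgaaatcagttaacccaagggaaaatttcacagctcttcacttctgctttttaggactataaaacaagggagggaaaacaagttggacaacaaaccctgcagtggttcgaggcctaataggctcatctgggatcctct
Ptgs2: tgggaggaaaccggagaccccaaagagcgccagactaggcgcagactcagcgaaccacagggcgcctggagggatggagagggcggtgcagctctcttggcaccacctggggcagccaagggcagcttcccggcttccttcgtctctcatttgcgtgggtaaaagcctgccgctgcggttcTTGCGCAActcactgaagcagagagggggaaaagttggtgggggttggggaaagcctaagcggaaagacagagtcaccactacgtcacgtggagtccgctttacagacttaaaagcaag
In the Cxcl2 window a pair of overlapping kappa-B matches, GGGAATTTCC and GGAATTTCCC, began 97 and 96 bases before the start. The Ptgs2 window held TTGCGCAA 69 bases before the start, and the Il1b window held none of the 3 motifs searched on both strands. Over 32851 windows of 27025 genes, 8.46% held the kappa-B consensus, 7.81% the AP-1 motif TGANTCA and 10.8% TTGCNNAA. Of the 12 genes named below as higher with Cxcl2, 11 had a window, and the kappa-B consensus was in 1 (Nlrp3), TGANTCA in 0 and TTGCNNAA in 1 (Ptgs2). Of the 6 named as lower, 4 had a window, and the kappa-B consensus was in 1 (Camp), TGANTCA in 0 and TTGCNNAA in 1 (Fcnb). A match is a run of letters and was not tested as a binding site.

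Cxcl2-positive low-stefin cells made up a similar share of all kept cells in both libraries and a smaller share of the mature neutrophils in T1D. They were 15.3% of kept T1D cells (14.7 to 15.8) and 14.9% of kept control cells (14.3 to 15.6), a ratio of 1.02 (0.966 to 1.08). Among mature neutrophils they were 35.5% in T1D (34.4 to 36.7) and 43.0% in control (41.5 to 44.4), a ratio of 0.827 (0.789 to 0.867). Low-stefin cells were 68.1% of mature neutrophils in T1D and 85.6% in control, while 52.2% of the low-stefin cells in T1D and 50.2% in control had Cxcl2, a ratio of 1.04 (0.996 to 1.08). With the rule applied to cells thinned to 1000 counts each, the share of mature neutrophils was 38.2% in T1D and 43.9% in control. Kept T1D cells reached down to 1369 counts and control cells to 1904. With both libraries held to the higher of these totals, 13.8% of T1D and 14.9% of control kept cells were Cxcl2-positive low-stefin cells. A share does not tell a change in these cells apart from a change in the other cells of the suspension.

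**Figure D1:**
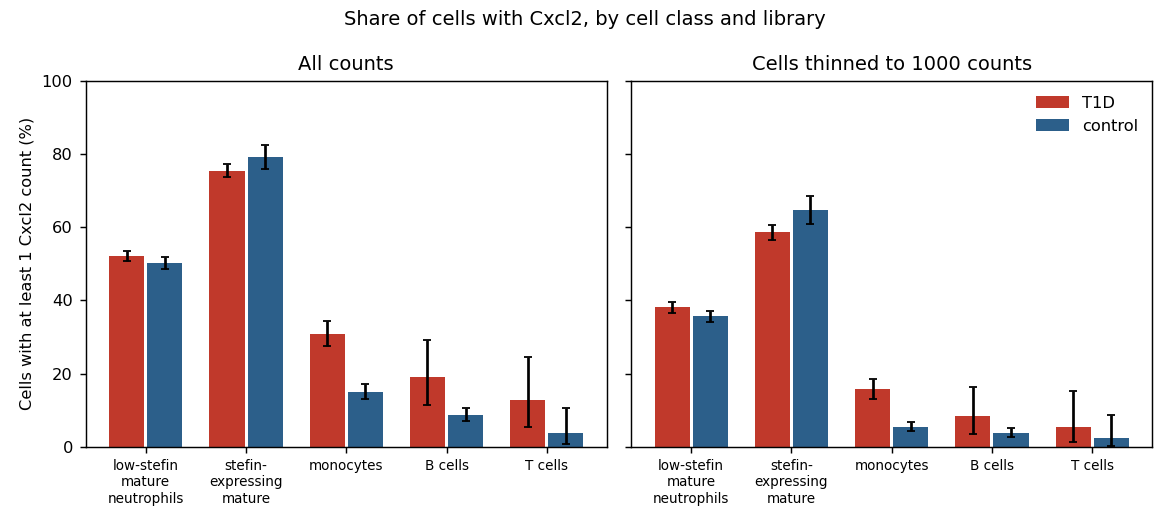
Share of cells with at least 1 Cxcl2 count (y axis, percent) in T1D (red) and control (blue), by cell class (x axis), with all counts (left) and after thinning each cell to 1000 counts (right); error bars are exact 95% binomial intervals of counting error. Low-stefin mature neutrophils stand at 52.2% in T1D and 50.2% in control, below the stefin-expressing ones and above B and T cells in both libraries.

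The cut on Cxcl2 passed through a continuous range of counts. Members with exactly 1 Cxcl2 count numbered 650 in T1D and 448 in control, those with 2 numbered 416 and 244, and just outside the cut stood the 2181 T1D and 1898 control cells with none. The median Cxcl2 count of a Cxcl2-positive cell was 3 in T1D and 4 in control, and the highest was 29 in T1D and 51 in control. A single stefin count was carried by 623 T1D and 195 control members, and 385 T1D and 135 control mature cells with Cxcl2 lay just outside with a stefin sum of 2. Free RNA can give a cell a single count, so cells that should lack Cxcl2 were counted. Among cells with Cd79a and Cd79b and no Cxcr2, taken as B cells, 19.0% of 84 T1D cells (11.3 to 29.1) and 8.64% of 995 control cells (6.97 to 10.6) had Cxcl2, at median totals of 2068.5 and 3411 counts. After thinning to 1000 counts the shares were 38.1% in T1D and 35.6% in control low-stefin cells, against 8.33% and 3.72% in these B cells. Among stefin-expressing mature neutrophils 75.5% had Cxcl2 in T1D and 79.3% in control.

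Cells with Cxcl2 had more Il1b, Nlrp3, Acod1, Ptgs2 and Ccl6 transcripts than low-stefin cells without it, in both libraries. A gene was called higher or lower when the log2 ratio of CPM + 5 was at least 1 in size, the higher group had at least 50 CPM and the counting interval excluded a ratio of 1. By this rule 56 of 11973 genes were higher (0.468%) and 7 lower (0.0585%) in Cxcl2-positive cells of the T1D library, and 83 of 11964 (0.694%) and 15 (0.125%) in the control library. In both libraries 44 of 11313 genes were higher (0.389%), among them Cxcl2, Csf3r and Retnlg, which the rule used, and 6 were lower (0.053%). Cells with counts of 2 or more markers of a single other type, the monocyte list not included, were 12.99% of Cxcl2-positive and 12.1% of Cxcl2-negative cells in T1D, and 19.7% and 15.4% in control. Igha, Ighg2c, Igkc and Jchain were among the 56 higher T1D calls, with 23.1% to 92.1% of their Cxcl2-positive counts in 1 cell. Hba-a1, Hba-a2, Hbb-bs, Hbb-bt, Mcpt8 and Prss34, markers of that filter, were among the 83 higher control calls and fell under the rule without such cells. The filter removes cells by these same genes, so their fall was built in and decides nothing.

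Il1b stood at 1234 CPM in Cxcl2-positive against 180.4 CPM in Cxcl2-negative cells of T1D, and at 965 against 124 CPM in control. This was 6.84-fold higher in T1D (6.45 to 7.26) and 7.82-fold higher in control (7.29 to 8.38), the highest among genes past the rule in both libraries, with genes of the membership rule left out, when ranked by the smaller of its ratios. At least 1 Il1b count was seen in 59.7% of Cxcl2-positive and 21.6% of Cxcl2-negative T1D cells, and in 50.4% and 14.0% of control cells. The B cells defined above had Il1b in 13.1% in T1D and 9.05% in control. Stefin-expressing mature neutrophils had it in 62.9% in T1D and 66.9% in control, at 1494 and 1620 CPM, above the Cxcl2-positive low-stefin cells. Cells with Csf1r and Ccr2 and no Cxcr2, taken as monocytes, had it in 46.8% in T1D and 32.1% in control. Nlrp3, the sensor of the inflammasome that matures interleukin-1 beta, was at 183 against 36.5 CPM in T1D and at 249 against 52.4 CPM in control. Il1f9, which encodes interleukin-36 gamma, was at 193 against 66.9 CPM in T1D and at 361 against 107 CPM in control. The antagonist Il1rn, at 73.6 against 42.0 CPM in T1D and 128 against 67.1 CPM in control, and the decoy receptor Il1r2, at 625 against 369 CPM and 634 against 322 CPM, were under the size rule in both. Of the 13 list genes of the interleukin-1 family and inflammasome counted in T1D and 12 in control, 3 were called higher in each (Il1b, Il1f9, Nlrp3), with medians on the log2 scale of 0.35 and 0.46.

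Among chemokines, Ccl6, a CC chemokine of rodent myeloid cells, was at 489 against 104 CPM in T1D and at 436 against 73.3 CPM in control. Cxcl3, a second ligand of Cxcr2, was low, at 19.9 against 1.72 CPM in T1D and at 3.39 against 0.936 CPM in control, and stayed under the 50 CPM minimum. Ccl3 and Ccl4, CC chemokines of activated myeloid cells, were called higher in control (94.5 against 26.7 CPM and 126 against 41.2 CPM). In T1D the same pair stood at 48.9 against 36.0 CPM and 46.3 against 42.7 CPM. Without cells that held 2 or more markers of another cell type, Ccl4 in control was at a log2 ratio of 0.92, under the rule. Ccl3 then kept a log2 ratio of 1.28, at 43.0 against 14.7 CPM, and missed the rule by its 50 CPM minimum. Cxcr4 was nearly level, at 160.0 against 165 CPM in T1D and at 113 against 110.0 CPM in control. A ratio of 0.969 (0.891 to 1.05) in T1D and of 1.03 (0.931 to 1.14) in control included 1 in both libraries.

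Innate sensors and lectins were among the higher genes. Clec4d, a C-type lectin that binds fungal and mycobacterial glycolipids, was at 196 against 36.3 CPM in T1D and at 505 against 106 CPM in control. Clec7a, the beta-glucan receptor dectin-1, was at 82.7 against 23.7 CPM in T1D and at 143 against 29.9 CPM in control. Tlr2 and Tlr13, sensors of bacterial lipoproteins and ribosomal RNA, were 2.24-fold and 2.32-fold higher in T1D and 2.24-fold and 2.10-fold higher in control. Hcar2, the receptor for niacin and beta-hydroxybutyrate, was at 70.7 against 15.4 CPM in T1D and at 117 against 25.8 CPM in control. Ifitm1, an interferon-induced membrane protein, was at 60.3 against 16.0 CPM in T1D and at 106 against 26.9 CPM in control. In the list of innate sensors and lectins, 5 of 19 genes were called higher in each library and 0 lower, with median log2 ratios of 0.36 in T1D and 0.52 in control.

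Enzymes of inflammatory mediators went in both directions. Acod1, which makes itaconate, was at 293 against 56.0 CPM in T1D and at 462 against 76.2 CPM in control. Ptgs2, the inducible prostaglandin synthase, was at 155 against 31.2 CPM in T1D and at 239 against 47.1 CPM in control. Pla2g7, which inactivates platelet-activating factor, was at 209 against 66.6 CPM in T1D and at 86.0 against 14.2 CPM in control. Lta4h, which makes leukotriene B4, was lower with Cxcl2, at 251 against 514 CPM in T1D and at 230.3 against 517 CPM in control. Wfdc17, a small secreted protein of the whey acidic protein family, was at 185 against 36.9 CPM in T1D and at 174 against 20.9 CPM in control.

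The lists of NF-kB targets and immediate early genes had medians above 0. Of 26 NF-kB targets and inhibitors, 24 had a ratio above 1 in T1D and 25 in control, with medians of 0.56 and 0.58 on the log2 scale, beside -0.05 and -0.02 over all genes tested. The rule called 4 higher in T1D (Nfkbiz, Tnfaip3, Ptgs2, Pim1) and 6 in control (Nfkbia, Nfkbiz, Tnfaip2, Ptgs2, Ier3, Pim1). Nfkbiz, an inducible NF-kB cofactor, was at 712 against 305 CPM in T1D and at 517 against 218 CPM in control. The same list held Tnf, at 32.4 against 31.4 CPM in T1D and at 31.7 against 23.4 CPM in control, and Icam1, at 1.90 against 1.001 CPM in T1D and 0.442 against 1.74 CPM in control. Of 23 immediate early genes, 20 in T1D and 22 in control had a ratio above 1, with medians of 0.63 and 0.77. Over all genes tested 5131 of 11973 in T1D and 5652 of 11964 in control had a ratio above 1. Junb, Egr1, Dusp1 and Btg2 were called in both libraries. Dusp1, a phosphatase that shuts off MAP kinases, was at 464 against 160.2 CPM in T1D and at 562 against 164 CPM in control.

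**Figure D2:**
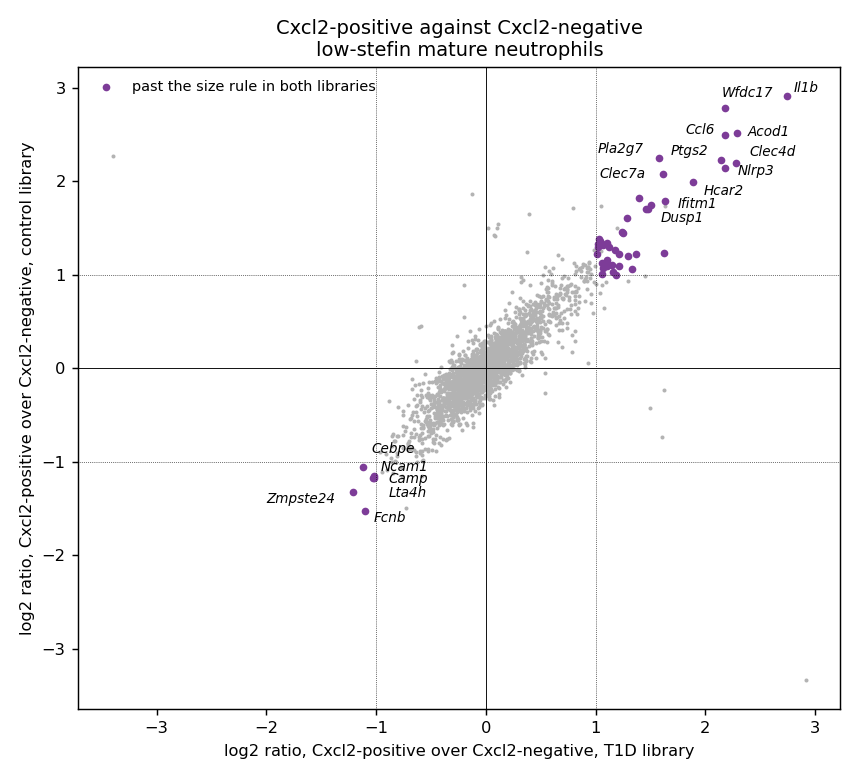
Each point is a gene with at least 50 CPM in a class; the axes give the log2 ratio of CPM + 5 of Cxcl2-positive over Cxcl2-negative low-stefin cells in T1D (x axis) and control (y axis), dotted lines mark a ratio of 2-fold, purple points pass the size rule in both libraries, and Cxcl2 is left out. Among the purple points Il1b stands highest, at 2.74 and 2.92, and the 6 lower genes lie near the -1 lines.

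Genes of the secondary granule stage were among those lower with Cxcl2. Camp, the cathelicidin of secondary granules, was at 12236 against 24870.0 CPM in T1D and at 12870 against 28955 CPM in control. Cebpe, the transcription factor of the secondary granule stage, was at 31.8 against 75.05 CPM in T1D and at 49.8 against 109 CPM in control. Fcnb, a ficolin of immature neutrophils, was at 81.1 against 180.3 CPM in T1D and at 57.0 against 173 CPM in control. Zmpste24, the protease that matures lamin A, was at 193 against 454 CPM in T1D and at 139 against 356 CPM in control. Ncam1, an adhesion molecule, was at 28.8 against 63.9 CPM in T1D and at 39.8 against 96.0 CPM in control. Of 10 secondary granule genes 9 had a ratio below 1 in each library, with medians of -0.59 in T1D and -0.75 in control, and the rule called 1 lower in T1D (Camp) and 3 in control (Camp, Chil3, Orm1). Mmp8 was the exception, at 2193 against 1559 CPM in T1D and at 2889 against 1825 CPM in control. Over all genes tested 6842 of 11973 in T1D and 6312 of 11964 in control had a ratio below 1. The cycling markers Mki67, Top2a and Ube2c summed to 896 against 1610 CPM in T1D and to 840 against 1432 CPM in control. Several of these calls lie close to the cut: with cells thinned to 1000 counts the T1D log2 ratios of Cebpe and Ncam1 were -0.999 and -0.85 and the control ratio of Ncam1 was -0.99, and with TMM scaling those of Camp, Lta4h and Ncam1 in T1D were -0.95, -0.95 and -0.96. Without cells of mixed markers Camp in T1D was at -0.98 and Cebpe in control at -0.96.

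Levels also followed the number of Cxcl2 counts in the cell. Low-stefin cells were divided into those with 0, 1, 2 to 3, 4 to 7 and 8 or more Cxcl2 counts, which held 2181, 650, 682, 615 and 431 T1D cells and 1898, 448, 438, 497 and 531 control cells. Il1b stood at 180.4, 472, 840.1, 1521 and 2783 CPM along these strata in T1D and at 124, 363, 607, 1044 and 1692 CPM in control. Nlrp3 stood at 36.5, 99.8, 137, 215 and 354 CPM in T1D and at 52.4, 119, 191, 252 and 401 CPM in control. Both transcripts were thus higher at every step, as were Acod1, Ptgs2, Ccl6, Clec4d, Nfkbia and Dusp1. Camp ran the other way, at 24870.0, 15816, 13464, 10073 and 7179 CPM in T1D and at 28955, 19777, 13240, 10191 and 9291 CPM in control, and Ngp, Ltf and Lta4h were also lower at every step. Cxcr4 stayed between 149.9 and 165 CPM in T1D and between 108 and 119 CPM in control. Cxcl3 reached 61.3 CPM in T1D cells with 8 or more Cxcl2 counts and 6.89 CPM in such control cells. The median total per cell was highest where Cxcl2 was 0, at 2733 counts in T1D and 3340.5 in control, and 2315 and 2917 counts in the top stratum.

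**Figure D3:**
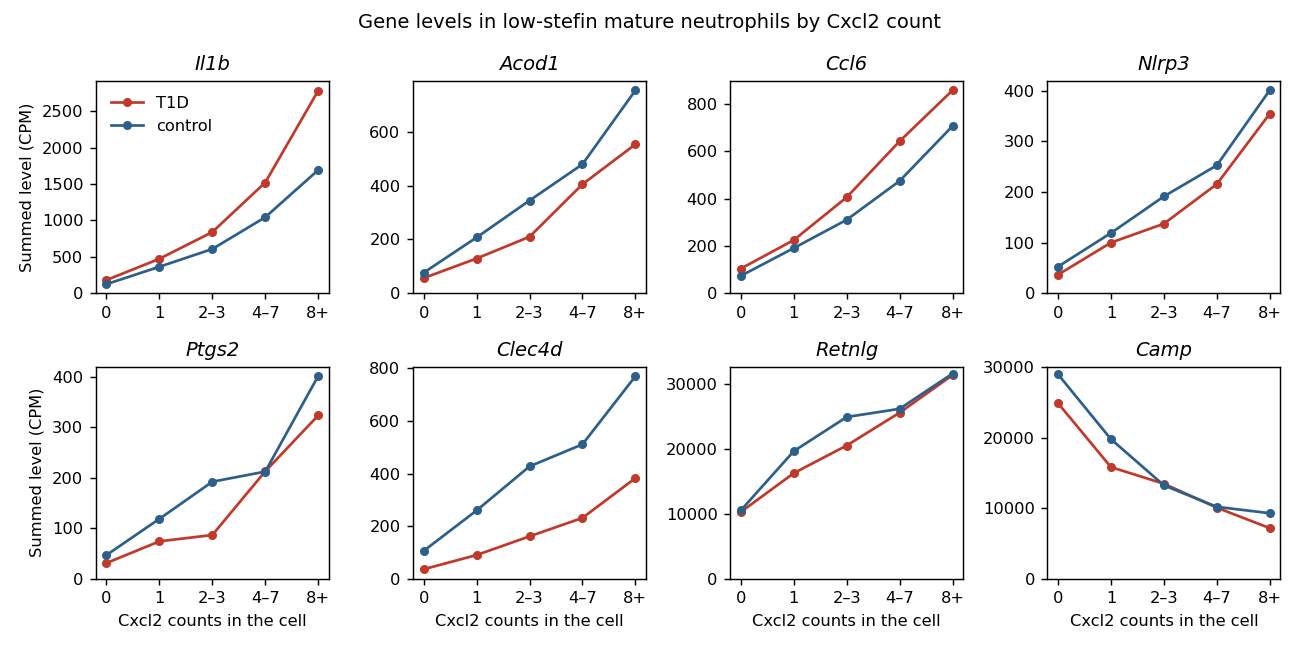
Summed level (y axis, CPM, linear from 0) of 8 genes in low-stefin mature neutrophils by the number of Cxcl2 counts in the cell (x axis), T1D in red and control in blue, 1 point per stratum and library. Il1b reaches 2783 CPM in T1D and 1692 CPM in control in the top stratum, and Camp is lowest there, at 7179 and 9291 CPM.

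Between the libraries, Cxcl2 itself averaged 1553 CPM in T1D and 1716 CPM in control. The size rule called 25 of 12001 genes higher in T1D (0.208%) and 21 lower (0.175%). With TMM scaling the split was 23 higher and 35 lower, with median-of-ratios scaling 22 and 35, and with totals that omit ribosomal RNA 50 and 35. The same comparison in Cxcl2-negative cells called 23 of 12016 genes higher (0.191%) and 14 lower (0.117%). The values of both classes are given side by side, and whether a gene's ratio differed between the classes was not tested, since each class has 1 library per group.

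Higher in T1D were genes of several functions. H1f0, a replacement linker histone, was at 88.0 CPM in T1D and 13.7 CPM in control, 6.43-fold higher (5.16 to 8.08). Its log2 ratio was 2.31 beside 3.35 in Cxcl2-negative cells, and -0.64 with free RNA subtracted at the level of plasma cell transcripts. After this subtraction H1f0 was left at 2.81 CPM in its higher library, below the 5 CPM added, so the -0.64 gives no usable direction. That subtraction took 87.9% of the pooled profile in T1D and 40.0% in control. It moved the median log2 ratio over all genes tested to -0.74, so values after it carry this unequal removal. Setting the level without cells over 20 plasma cell counts kept all 25 higher and all 21 lower calls. It took only 5.69% of the pooled profile in T1D and 2.64% in control, so the kept calls say nothing about larger amounts of free RNA. Asprv1, a retroviral-like aspartic protease, was at 423 CPM in T1D and 87.3 CPM in control, 4.85-fold higher (4.44 to 5.31), with log2 ratios of 2.21 and 2.57 in the positive and negative cells. Prok2, a chemokine-like peptide of neutrophils, was at 280.2 CPM in T1D and 98.6 CPM in control. Between the classes, which share these cells, Prok2 had log2 ratios of 1.33 in T1D and 1.06 in control. Cebpb, the C/EBP factor of emergency granulopoiesis, was at 330 CPM in T1D and 127 CPM in control, 2.60-fold higher (2.40 to 2.82). Hilpda and Plin2, which sit on lipid droplets, were at 81.2 and 223 CPM in T1D and 13.8 and 88.8 CPM in control. Cd38, an enzyme that consumes NAD, was at 53.1 CPM in T1D and 13.2 CPM in control. Under the subtraction that took 87.9% in T1D it was at 37.7 CPM in its higher library, below the 50 CPM minimum. Fkbp5, a co-chaperone induced by glucocorticoids, was at 86.5 CPM in T1D and 32.2 CPM in control, and Gm45221 was at 152 and 60.7 CPM. A single cell held 85.5% of the Ighg1 counts, 92.1% of the Ighg2c counts and 30.2% of the Jchain counts in T1D members, and these 3 immunoglobulin transcripts are among the 25 calls.

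A further set of the genes higher in T1D is known from monocytes. Vcan, a matrix proteoglycan, was at 81.8 CPM in T1D and 13.1 CPM in control, Fn1, fibronectin, at 233 and 69.8 CPM, and F13a1, a coagulation factor subunit, at 238 and 76.6 CPM. Ccr2, the receptor of monocyte egress, was at 211 CPM in T1D and 89.8 CPM in control. The full monocyte list of 7 genes, to which F13a1 and Ccr2 belong, summed to 1260 CPM in T1D and 1195 CPM in control, with none of its genes at 0. That sum rose by less than F13a1 and Ccr2 did, so the other genes of the list were together lower in T1D. At least 1 of its genes was counted in 69.5% of T1D and 83.4% of control Cxcl2-positive cells, and 2 or more in 18.2% and 11.6%. The part of these cells in the result was not tested. Without cells of mixed markers, a filter that did not use the monocyte list, the log2 ratios were 2.16 for Vcan, 1.76 for Fn1, 1.57 for F13a1 and 1.45 for Ccr2. After the same free RNA subtraction all 4 were at 0 CPM in both libraries.

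Several genes induced by interferon were lower in T1D. Ifi27l2a was at 7.47 CPM in T1D and 93.3 CPM in control, 12.5-fold higher in control (9.39 to 17.0), and Ifi27 at 29.1 and 92.2 CPM. Oasl2 was at 20.9 CPM in T1D and 62.6 CPM in control, Oas3 at 54.0 and 123 CPM and Ifitm3 at 266 and 645 CPM. With the same subtraction of free RNA the log2 ratio of Oas3 was 0.0039, that of Ifitm3 -0.79 and that of Oasl2 -0.60, all short of the rule. Each of the 25 type I interferon genes counted lay below a ratio of 1, with a median of -0.81 on the log2 scale beside 0.03 over all genes tested, and 4 were called lower. Of all 12001 genes tested, 5559 lay below 1. In Cxcl2-negative cells the interferon list's median was -0.53, with 24 of 25 below 1, beside 5149 of 12016 over all genes tested. Between the classes the list had medians of 0.42 in T1D, with 1 of 23 called higher (Ifitm1), and of 0.56 in control, with 4 of 25 (Rsad2, Oasl2, Ifi27l2a, Ifitm1). Nt5e, the ectonucleotidase CD73, was at 18.6 CPM in T1D and 66.2 CPM in control, Klra17, a receptor of the Ly49 family, at 16.1 and 57.0 CPM, and Clec4d at 196 and 505 CPM. Under that subtraction Nt5e was at -0.86, Klra17 at -0.66 and Clec4d at -0.14 on the log2 scale, which also ended these calls. Thbs1, thrombospondin, was at 954 CPM in T1D and 2192 CPM in control.

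Other lower genes moved with transcripts of other cell types. Ighm was at 59.4 CPM in T1D and 303 CPM in control, and the B cell list summed to 20.2 CPM in T1D and 154 CPM in control. H2-Aa and H2-Ab1, class II genes, were at 34.1 and 19.8 CPM in T1D and 94.96 and 67.1 CPM in control, where the dendritic cell list that holds them summed to 153 and 425 CPM. Mcpt8 and Prss34, basophil proteases, were at 42.0 and 66.3 CPM in T1D and 120 and 187 CPM in control. The basophil list that holds them summed to 120.3 and 348 CPM. Rgs1, a brake on G protein signalling, was at 14.9 CPM in T1D and 55.2 CPM in control, and Ccl4 at 46.3 and 126 CPM. Without cells of mixed markers H2-Aa, H2-Ab1, Mcpt8 and Prss34 had log2 ratios of -0.50, -0.47, -0.31 and -0.39, under the rule. These genes are themselves markers of that filter, so their smaller ratios were built in and decide nothing. Ccl4, Rgs1 and Ighm are not markers of the filter. Ccl4 and Rgs1 were then at -0.40 and -0.92, under the rule, while Ighm stayed past it at -1.84. After the same free RNA subtraction, Ighm, H2-Aa and H2-Ab1 were at 0 CPM in both libraries.

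**Figure D4:**
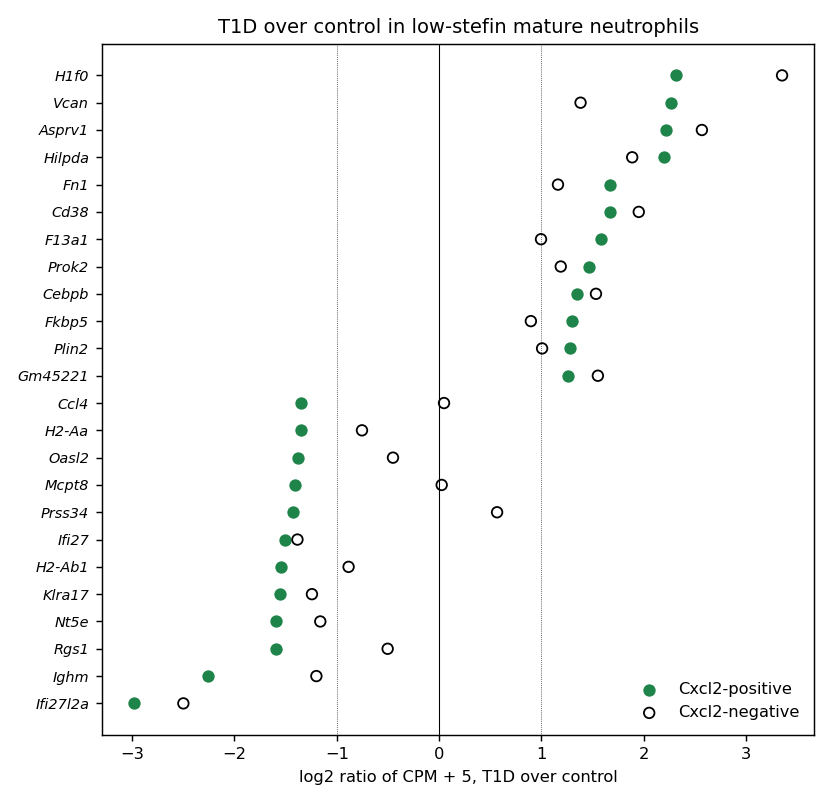
Log2 ratio of CPM + 5, T1D over control (x axis), of the 24 genes named by the fixed rule, in Cxcl2-positive (filled) and Cxcl2-negative (open) low-stefin cells; dotted lines mark 2-fold. H1f0 stands at 2.31 and 3.35 and Ifi27l2a at -2.98 and -2.50, and Ccl4, Mcpt8 and Prss34 lie near or above 0 in the Cxcl2-negative cells.

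The NF-kB, interleukin-1 and immediate early lists, whose medians were above 0 between the classes, had medians between -0.27 and -0.02 on the log2 scale between the libraries. Il1b was at 1234 CPM in T1D and 965 CPM in control, 1.28-fold higher (1.24 to 1.32) and under the size rule, and Nlrp3 at 183 and 249 CPM. The list of NF-kB targets had a median of -0.13 with 1 of 26 called higher (Pim1), the interleukin-1 list one of -0.02 with 0 called, and the immediate early list one of -0.27 with 18 of 23 below 1 and 0 called. Nfkbia, the NF-kB inhibitor, was at 582 CPM in T1D and 326 CPM in control, and Il1rn at 73.6 and 128 CPM, both under the rule. Primary granule genes stood apart from these, with 8 of 8 above 1, a median of 0.77 and 2 called higher, Mpo at 230 CPM in T1D and 98.3 CPM in control and Prtn3 at 355 and 168 CPM. With at least 2 Cxcl2 counts required, Mpo and Prtn3 were at log2 ratios of 0.59 and 0.57, and without cells of mixed markers Prtn3 was at 0.87, all under the rule. Both were at 0 CPM in both libraries after the same free RNA subtraction. In Cxcl2-negative cells the primary granule median was 0.78. Secondary granule genes had a median of -0.05. Over all genes tested between the libraries, 6442 of 12001 had a ratio above 1 and 5559 a ratio below 1.

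**Figure D5:**
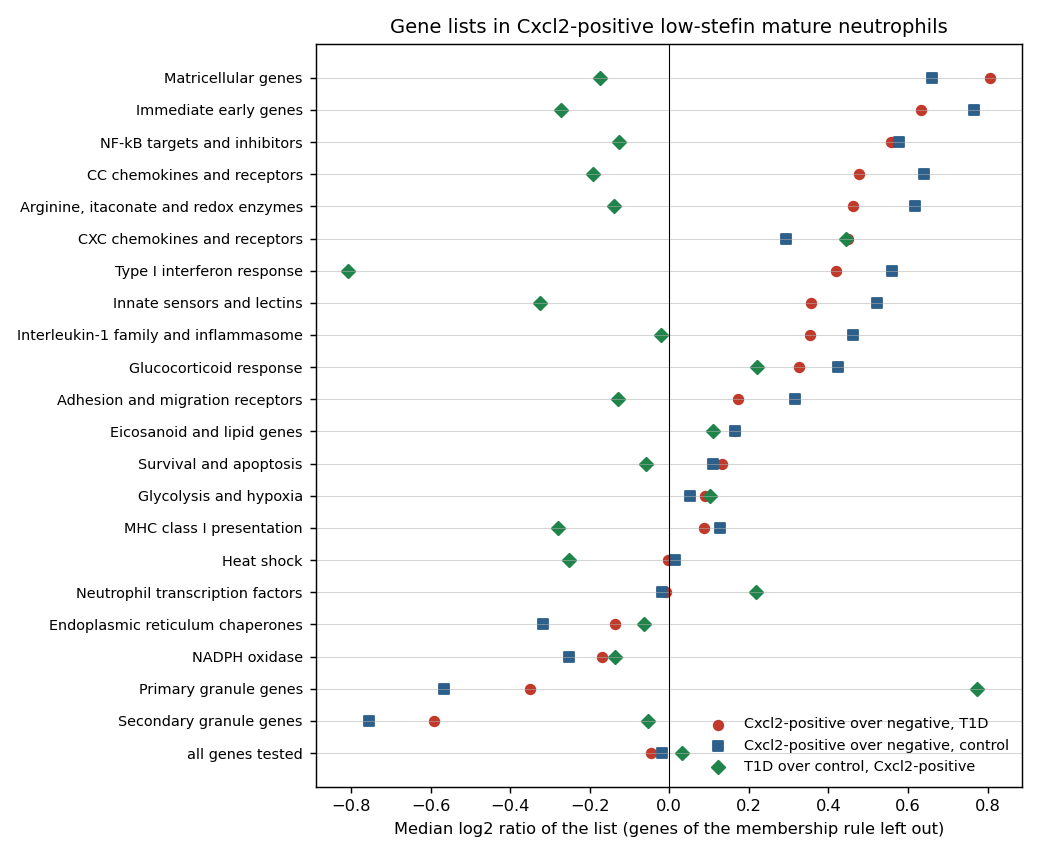
Median log2 ratio (x axis) of each gene list (y axis, genes of the membership rule left out) for Cxcl2-positive over Cxcl2-negative cells in T1D (red circles) and control (blue squares) and for T1D over control in Cxcl2-positive cells (green diamonds), with all genes tested in the bottom row. Type I interferon genes stand at -0.81 and primary granule genes at 0.77 between the libraries, and NF-kB targets at 0.56 and 0.58 between the classes.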

How the data were processed

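Single-cell RNA sequencing of marrow was deposited as 1 table of whole-number counts per gene and barcode for each library, not normalized by the authors as far as the values show. Reads were demultiplexed with bcl2fastq 2.19, assigned with featureCounts and referred to build mm9, as the submitters' processing notes list. Not given in the sources used here were the aligner, annotation, cell calling and any collapse of molecular identifiers. The deposited values are therefore called counts, and reads shared by near-identical genes (stefins, Klra and immunoglobulin genes) may have been split. The tables held 24831 (T1D) and 25395 (control) genes, 22384 in both, and a gene absent from 1 was set to 0 there. Of 15771 T1D and 12880 control barcodes, 15579 and 12803 were kept. No doublet caller was run.

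The members and gene lists were chosen with earlier results of these data known. Within each library the counts of a class were added up and scaled to CPM. Genes with at least 10 counts in both groups together were compared, with 5 CPM added before the log2 ratio. CPM intervals are exact Poisson, fold intervals exact conditional binomial, shares of cells exact Clopper-Pearson, and ratios of shares use a normal approximation on the log scale. Named genes were the 12 highest and 12 lowest past the size rule, leaving out genes of the membership rule, hemoglobin genes and genes with over 20% of their counts in 1 cell. Between classes the smaller of both libraries' ratios ranked them, among genes past the rule in both. Listed genes served as examples, and other genes named here were chosen after their values were seen. Summed counts of T1D and control members were simulated as Poisson draws from the control members' profile, with 200 changed genes. They gave 0 of 50 calls at 1.5-fold, 16 of 50 at 2-fold, 49 of 50 at 3-fold and 50 of 50 at 4-fold, and 0 calls among 11669 unchanged genes of 11869. The draws held no variation between cells or libraries, no doublets and no free RNA. Calls from such sources are therefore not covered by that 0. Alternatives covered scaling (edgeR 4.0.16 TMM, DESeq2 1.42.0 size factors), depth, thinning, the cuts and free RNA. Python 3.11.15, numpy 2.4.6, scipy 1.17.1 and pandas 2.3.3 were used.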

Additional observations from a re-analysis of the deposited data

Results flagged for a closer look

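Ighg2c, an immunoglobulin heavy chain constant region, moved in opposite directions in the groups compared. Its log2 ratio of Cxcl2-positive over Cxcl2-negative cells was 2.92 in T1D and -3.33 in control, and its log2 ratio of T1D over control was 3.80 in Cxcl2-positive and -2.45 in Cxcl2-negative cells. A single cell held 92.1% of its counts in T1D Cxcl2-positive cells, and a single cell held 97.4% of its counts in control Cxcl2-negative cells. The difference between the ratios was not tested.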

How the results depend on the processing

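No paired analysis was possible because each group has 1 library. Each alternative was set against the reported counts and ratios. Of 1820 values of 130 gene and comparison pairs, 1414 stayed within the counting interval, 400 moved outside it without a reversal of sign and 6 reversed. The 400 include ratios that fell to 0 because both groups were left at 0 CPM, which have no direction. Changing the CPM minimum or the minimum of counts cannot alter a ratio, so all 130 values under each were fixed to stay. The lowest control total likewise could not change the ratios between control classes. Without the 5% of cells with the highest totals, Igha was at -1.40 and Jchain at -0.62 between the T1D classes. With free RNA subtracted at the Jchain and Igha level, Glul was at -0.77, H1f0 at -0.64, Id2 at -1.79 and Oas3 at 0.0039 between T1D and control. H1f0 was then left at 2.81 CPM in its higher library. That subtraction took 87.9% of the pooled profile in T1D Cxcl2-positive cells, where 1 cell held 30.9% of the Igha counts, and 40.0% in control; it called 173 genes higher and 490 lower between libraries, 561 and 987 between T1D classes and 231 and 104 between control classes, and kept 10 of the 25 and 8 of the 21 calls between libraries. With cells over 20 such counts left out, the levels were 5.69% and 2.64%, and 123 of 130 values stayed within their interval. All 25 higher and 21 lower calls between libraries were then kept. Hemoglobin-level subtraction was not run, since that level was 120.6% of the pooled profile in control members.

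Lower calls between libraries, 21 as reported, numbered 35 with TMM, with median-of-ratios scaling, with ribosomal RNA left out and with each cell weighted alike, 37 in thinned cells, 66 at a 20 CPM minimum and 33 without the highest totals; higher calls, 25 as reported, numbered 50 without ribosomal RNA and 46 at 20 CPM. Between T1D classes, 7 lower calls became 4 with TMM, with median-of-ratios scaling and at the control library's lowest total, 13 in thinned cells, and 16 with at least 2 Cxcl2 counts or without the highest totals, while 56 higher calls became 90 with at least 2 Cxcl2 counts. Between control classes, 15 lower calls became 23 without ribosomal RNA, 26 in thinned cells and without the highest totals, 28 with at least 2 Cxcl2 counts and 32 without cells of mixed markers. The log2 share ratio, T1D over control, was 0.030 of kept cells, -0.11 at the lowest control total and -0.25 at a stefin sum of 0; of mature cells it was -0.27, then -0.37 at that total, -0.20 thinned, -0.35 at 2 Cxcl2 counts and -0.56 at a stefin sum of 0; of low-stefin cells it was 0.055, then -0.038 at that total and -0.021 at 2 Cxcl2 counts. The causes were not tested.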

Other observations

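Other genes and gene groups of the Cxcl2-positive cells were compared by the same size rule, first against the Cxcl2-negative cells of the same library. Hif1a, the oxygen-regulated transcription factor, was at 132 against 59.3 CPM in T1D and at 123 against 62.6 CPM in control, past the rule in T1D. Mcl1, the survival factor of neutrophils, was at 1137 against 727 CPM in T1D and at 754 against 443 CPM in control, under the rule in both. Fth1, the ferritin heavy chain, was called higher in both, at 1676 against 720.0 CPM in T1D and at 2063 against 965 CPM in control. Endoplasmic reticulum chaperones had medians of -0.14 in T1D and -0.32 in control on the log2 scale, with 11 and 12 of 13 below 1 and 0 called. Over all genes tested 6842 of 11973 in T1D and 6312 of 11964 in control were below 1.

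Between T1D and control Cxcl2-positive cells, the heat shock list had a median of -0.25 with 9 of 12 below 1, and class I presentation genes one of -0.28 with 8 of 11 below 1. NADPH oxidase genes had one of -0.14 with 6 of 6 below 1, and 0 were called in each list. Over all genes tested 5559 of 12001 were below 1, with a median of 0.03. Pla2g7 was at 209 CPM in T1D and 86.0 CPM in control, and Pim1, a survival kinase, at 613 and 294 CPM.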
